A study of Mus musculus with 18 samples.

Results

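The solute carriers described here are the amino acid and neurotransmitter transporter families Slc1, Slc3, Slc6, Slc7, Slc15, Slc17, Slc36, Slc38 and Slc43, without the glutamate transporters Slc1a2 and Slc1a3. They were found by symbol in the authors' deposited table, where 35 of 12205 genes belonged to these 9 families. One of them, Slc7a6os, carries the name of Slc7a6 for its place on the strand opposite that gene, and it is no transporter, which leaves 34 transporter genes. Members of these families without a row in the table were not analysed here.

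Thawed primary astrocytes from newborn wild-type C57BL mice of pooled sexes received a pair of inflammatory cytokines, TNFα at 20 ng/ml together with IL-1β at 0.25 ng/ml, for 24 h or for 48 h. Untreated cells of the same kind were the controls, and all cells spent 120 h in culture. Each lysate gave an RNA-seq library, which measures mRNA abundance, and a ribosome profiling library, made from the mRNA pieces of 26 to 34 nt that ribosomes protect from RNase I (footprints). The 18 libraries fell into 6 groups of 3 batches (RNA and footprints, each at 24 h, at 48 h and untreated).

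The authors' deposited table gives 1 log2 fold change per gene for each treatment time against untreated cells, for RNA and for footprints. It also gives a change in translation efficiency, footprints relative to RNA, which was close to footprints minus RNA for most genes but not for all. A positive value means higher in treated cells. No values per batch, no levels and no depths are in the table, so the spread between batches is unknown and no test was made. Genes are called higher at a log2 value of 1 or more and lower at -1 or less, by size alone. In cultures as in any bulk sample, fewer cells of a type and less RNA per cell cannot be told apart.

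Amino acid transporters pass their substrates across the plasma membrane or the membranes of lysosomes and vesicles. Some are exchangers, some are driven by sodium or proton gradients, and some need no ion gradient. In the brain, astrocytes clear transmitters such as glutamate and GABA from the extracellular space, hand glutamine back to neurons, and take up cystine to make glutathione. Heteromeric transporters consist of a light chain of family Slc7, which carries the substrate, and a heavy chain of family Slc3, which brings the light chain to the cell surface.

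The members covered a wide range of values, from RNA values of -4.12 for Slc7a8 to 8.59 for Slc15a3 at 24 h in the authors' deposited table. Within 0.5 of 0 lay 15 of 35 members in RNA and 13 in footprints at 24 h, beside 64.1% and 64.9% of all genes. In RNA at 24 h, 7 of 35 members were higher and 9 lower, against 7.54% and 9.55% of all genes. In footprints at 24 h the counts were again 7 higher and 9 lower, where all genes gave 7.87% and 8.7%. At 48 h, 7 members were higher and 9 lower in RNA (8.11% and 10.3% of all genes), and 7 higher and 7 lower in footprints (8.13% and 8.71%). The shares of members were 20.0% higher and 25.7% lower in RNA at both times. In RNA and footprints members were thus past 1 more often than all genes in both directions, a difference that was not tested.

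The medians over members lay near 0, with members far from it on both sides. In RNA the member median was 0.07 at 24 h and -0.15 at 48 h, beside -0.03 and -0.02 over all genes. In footprints it was 0.16 at 24 h and 0.06 at 48 h, beside 0.01 at both times over all genes, and without Slc7a6os the value at 48 h was -0.036. The RNA means over members were 0.30 at 24 h and 0.23 at 48 h, so the sign of the RNA value at 48 h differed between median and mean. Among the 157 solute carrier genes of other families, 13.4% were higher and 10.2% lower in RNA at 24 h, and 11.5% and 10.8% at 48 h. In footprints 16.6% of these other solute carriers were higher and 10.8% lower at 24 h, and 15.9% and 9.55% at 48 h, so their shares of higher genes were closer to the 20.0% of members than those of all genes were.

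The same 7 members were higher in RNA and footprints at both times: Slc15a3, Slc36a2, Slc7a11, Slc43a3, Slc43a2, Slc7a2 and Slc6a6. Likewise 7 were lower in all 4 values, among them Slc7a8, Slc38a3, Slc1a6, Slc6a17, Slc7a5 and Slc38a1. Both times were set against the same untreated libraries, and RNA and footprints share lysates, so these 4 values are not independent. Of all genes, 5.74% were higher and 5.53% lower in all 4. A further 3 members (Slc3a2, Slc7a4 and Slc38a2) were lower in 1 to 3 of the 4 values, and 18 passed 1 in none.

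**Figure D1:**
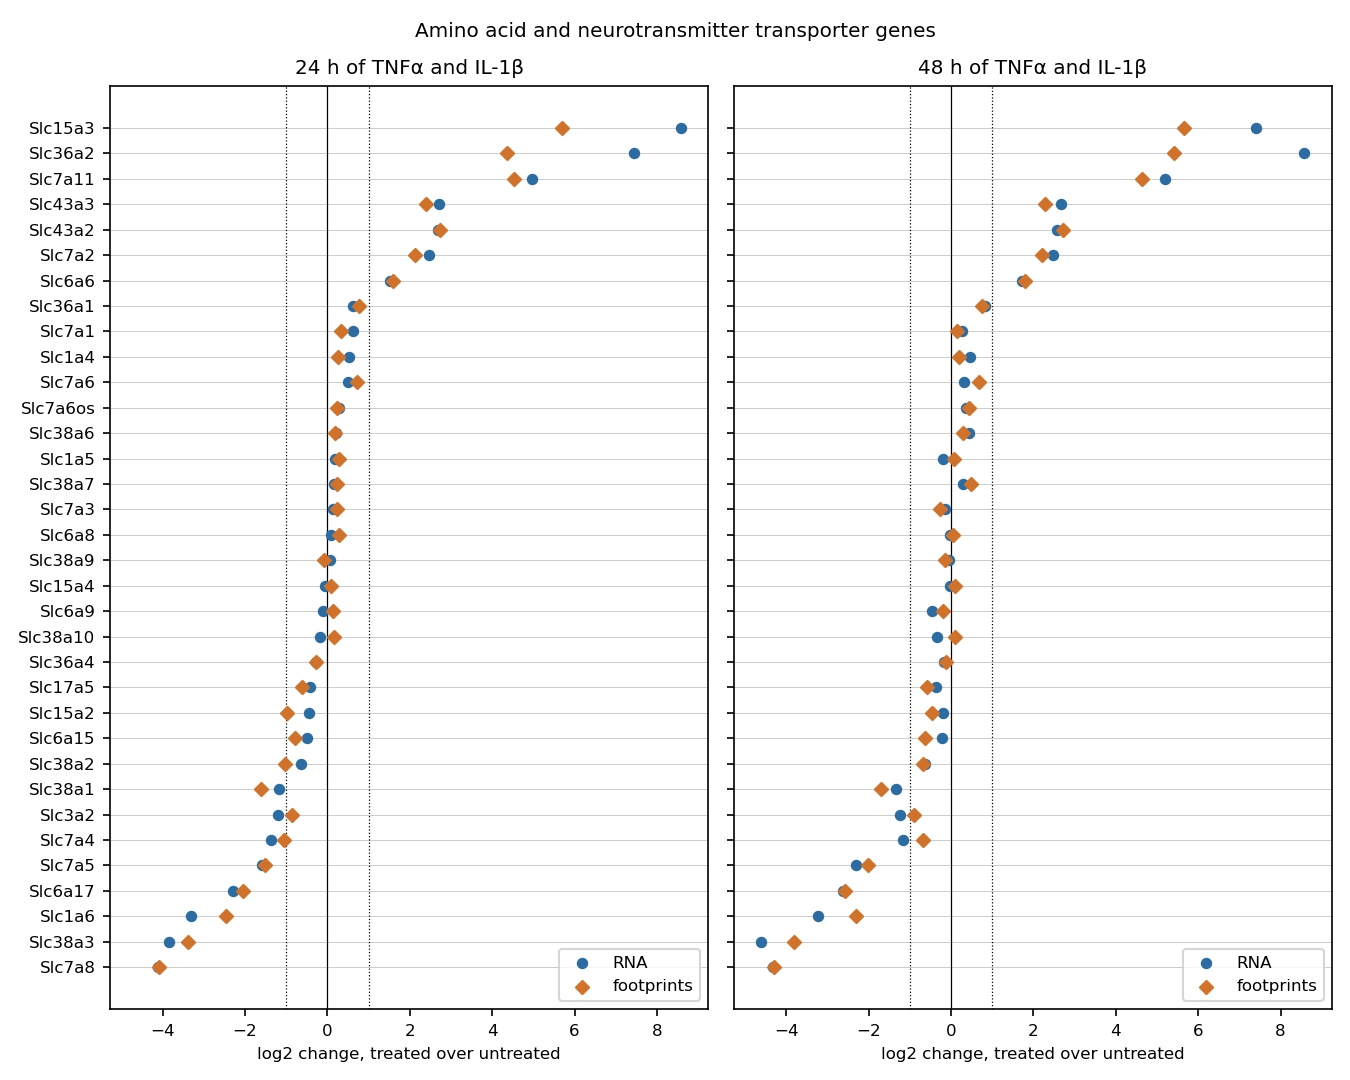
Log2 change of 34 members in treated over untreated astrocytes (x axis) at 24 h (left) and 48 h (right), in RNA (circles) and footprints (diamonds), ordered by RNA at 24 h; dotted lines mark -1 and 1. Slc15a3, Slc36a2 and Slc7a11 stand far to the right, Slc7a8 and Slc38a3 far to the left, and 18 members lie between the dotted lines in all 4 values.

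Among the heteromeric transporters, the light chain of the cystine exchanger was strongly higher while the heavy chain and the light chains for large neutral amino acids were lower. Slc7a11 codes for xCT, which imports cystine in exchange for glutamate, and lies at chr3:50364936-50499087 on GRCm38.p6. The authors' deposited table placed Slc7a11 at 4.96 in RNA and 4.52 in footprints at 24 h, and at 5.20 and 4.65 at 48 h. On the linear scale this was 31.2-fold higher RNA at 24 h and 36.7-fold at 48 h, and among 12205 genes it ranked 121 and then 107 from the highest RNA value.

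The light chains for large neutral amino acids went the other way. Slc7a8 codes for LAT2, which exchanges neutral amino acids including glutamine, and lies at chr14:54722215-54781886. Its log2 values in the authors' deposited table were -4.12 in RNA and -4.10 in footprints at 24 h, and -4.31 and -4.30 at 48 h. RNA in treated cells was 5.77% of that in untreated cells at 24 h and 5.03% at 48 h, and Slc7a8 ranked 14 from the lowest of 12205 RNA values at 24 h. Slc7a5 codes for LAT1, the exchanger that brings in leucine and other large neutral amino acids, and lies at chr8:121881146-121907686. The authors' deposited table had Slc7a5 at -1.58 in RNA and -1.52 in footprints at 24 h, and at -2.31 and -2.01 at 48 h. Slc7a5 was thus lower in all 4 values and lower still at 48 h, though not by 1.

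Slc3a2 codes for the heavy chain 4F2hc (CD98), the common partner of these light chains, and lies at chr19:8706882-8723369. Its values in the authors' deposited table were -1.20 in RNA and -0.85 in footprints at 24 h, and -1.23 and -0.89 at 48 h, so it passed -1 in RNA and not in footprints. The remaining measured light chain, Slc7a6 (y+LAT2, an exchanger of cationic for neutral amino acids), stood at 0.49 and 0.73 in RNA and footprints at 24 h and at 0.32 and 0.67 at 48 h in the authors' deposited table. The Slc7a11 value therefore exceeded that of its heavy chain by 6.17 in RNA and 5.37 in footprints at 24 h, and for Slc7a8 the same differences were -2.91 and -3.25. These are differences between changes, not between the amounts of the chains, which the table does not give.

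**Figure D2:**
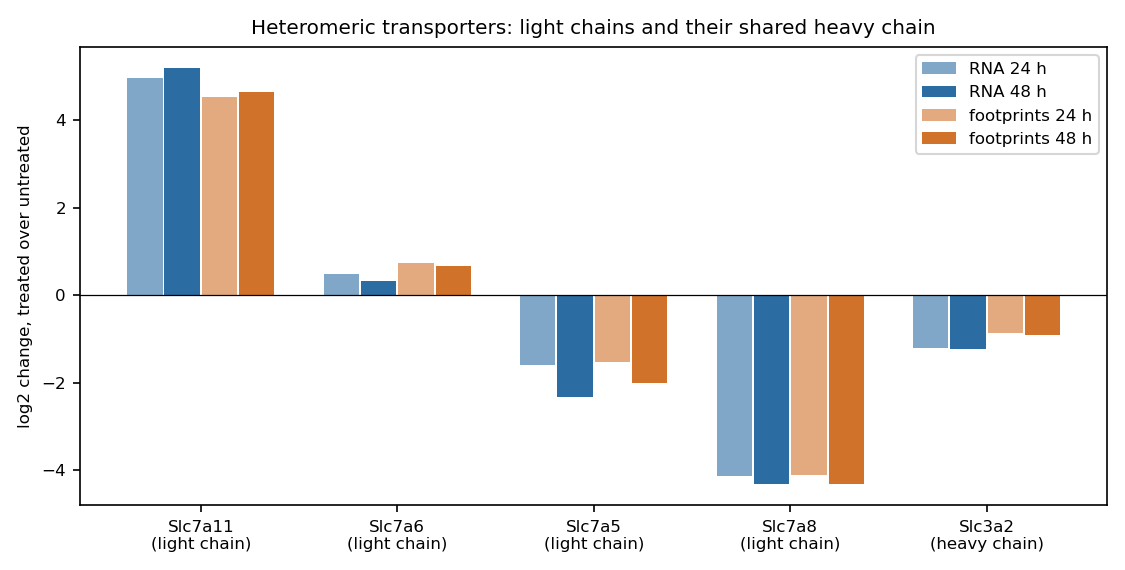
Log2 change in treated over untreated astrocytes (y axis, bars from 0) for the 4 light chain genes and their shared heavy chain gene Slc3a2, in RNA (blue) and footprints (orange) at 24 h (pale) and 48 h (dark). Slc7a11 alone reaches above 4, Slc7a6 stays between 0 and 1, and Slc7a5, Slc7a8 and Slc3a2 lie below 0.

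Promoter sequences were looked at for the light chain genes at both ends of the range and for the only other member with the same motif. Amino acid shortage is known to activate ATF4, a transcription factor that binds together with C/EBP proteins at sites of the form TGATGNAA. RefSeq promoters of GRCm38.p6, 250 bases before to 50 after a listed start, matched 21 of the 35 members by symbol (27 promoters). The motif TGATGNAA, searched on both strands, stood in the promoters of Slc7a11 and Slc1a4, 2 of the 27 member promoters, and in 3.97% of all 32851 promoters. Capitals mark the matches, and the sequences run 5′ to 3′ on the strand of the gene, which is the minus strand for all 3. They are chr3:50443564-50443863 (Slc7a11), chr11:20332664-20332963 (Slc1a4) and chr14:54781837-54782136 (Slc7a8).
Slc7a11: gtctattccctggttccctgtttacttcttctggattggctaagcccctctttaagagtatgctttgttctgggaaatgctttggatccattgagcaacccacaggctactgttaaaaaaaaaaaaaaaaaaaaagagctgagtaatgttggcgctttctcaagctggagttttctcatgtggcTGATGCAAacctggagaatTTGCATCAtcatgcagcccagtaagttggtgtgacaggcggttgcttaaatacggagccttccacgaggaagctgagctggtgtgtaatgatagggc
Slc1a4: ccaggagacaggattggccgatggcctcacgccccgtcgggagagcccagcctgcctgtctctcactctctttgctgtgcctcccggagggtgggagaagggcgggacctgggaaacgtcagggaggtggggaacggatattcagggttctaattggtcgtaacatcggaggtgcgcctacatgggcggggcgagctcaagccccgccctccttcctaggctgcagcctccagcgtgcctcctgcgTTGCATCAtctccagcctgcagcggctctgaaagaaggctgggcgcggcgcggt
Slc7a8: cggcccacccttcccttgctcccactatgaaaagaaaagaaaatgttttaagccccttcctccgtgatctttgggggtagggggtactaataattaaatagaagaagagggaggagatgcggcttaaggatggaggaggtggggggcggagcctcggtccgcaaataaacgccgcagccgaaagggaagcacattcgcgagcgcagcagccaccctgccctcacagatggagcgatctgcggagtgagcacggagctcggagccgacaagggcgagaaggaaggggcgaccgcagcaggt

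In Slc7a11 there were 2 matches, both TGATGCAA, at positions -66 to -59 on the gene's strand and at -47 to -40 on the opposite strand, counted from the listed start. That start lies inside the span given above for Slc7a11, and the outer end of the span was not searched. In Slc1a4, which exchanges serine, alanine and other small neutral amino acids (ASCT1), 1 match spanned the start on the opposite strand, from -4 to 4. The window of Slc7a8 held none. Slc1a4 RNA and footprint values in the authors' deposited table were 0.53 and 0.25 at 24 h, and 0.46 and 0.19 at 48 h, so the motif was found both in a member far above 1 and in one below it. An NF-kB form (GGG, any 2 bases, TTTCC) was found in 0 of the 27 member promoters and 1.63% of all promoters. The antioxidant form TGACNNNGC was found in 7 of the 27, belonging to 5 members (Slc6a9, Slc7a1, Slc7a6, Slc36a1 and Slc38a2), and in 12.4% of all promoters. The 2 Slc7a6 promoters with it overlap and hold the same match, which was thus counted in both. Member promoters were richer in G and C, with a median of 60.7% beside 52.7% in all promoters, and the shares were not adjusted for this. These are matches of letters, not measured binding.

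Among the cationic amino acid transporters, which bring arginine, lysine and ornithine into the cell, only Slc7a2 was higher. Slc7a2 codes for CAT2 and lies at chr8:40862341-40922070. It had values of 2.46 in RNA and 2.13 in footprints at 24 h, and of 2.48 and 2.21 at 48 h, in the authors' deposited table. That is 5.51-fold higher RNA at 24 h and 5.57-fold at 48 h. Slc7a1 (CAT1), the widely expressed member, stood at 0.62 and 0.34 in RNA and footprints at 24 h and at 0.27 and 0.15 at 48 h in the same authors' deposited table. Slc7a3 (CAT3) lay between -0.27 and 0.23 in these 4 values. Slc7a4, a related gene with no settled transport function, was at -1.36 and -1.05 in RNA and footprints at 24 h, and at -1.17 and -0.68 at 48 h, in the authors' deposited table.

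The sodium-coupled neutral transporters of family Slc38 had no member higher. Slc38a3 codes for SNAT3, the system N transporter through which astrocytes release glutamine, and lies at chr9:107651154-107668968. The values of Slc38a3 in the authors' deposited table were -3.84 in RNA and -3.39 in footprints at 24 h, and -4.62 and -3.83 at 48 h. Its RNA in treated cells was 6.98% of that in untreated cells at 24 h and 4.07% at 48 h. Slc38a1 (SNAT1) and Slc38a2 (SNAT2), system A transporters that accumulate glutamine and alanine, lie on chromosome 15 with 43.95 kb between them. Slc38a1 had -1.17 in RNA and -1.60 in footprints at 24 h, and -1.33 and -1.69 at 48 h, and was more strongly lower in footprints than in RNA in the authors' deposited table. Slc38a2 followed at -0.65 and -1.03 at 24 h and at -0.63 and -0.67 at 48 h in the authors' deposited table, so it passed -1 only in footprints at 24 h. The other 4 members of the family, the lysosomal Slc38a9 (part of arginine sensing for mTORC1), the lysosomal glutamine transporter Slc38a7, Slc38a6 and Slc38a10, lay between -0.34 and 0.49 in all 4 values.

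In family Slc1 the values divided between Slc1a6 and the neutral amino acid exchangers. Slc1a6 codes for EAAT4, a glutamate transporter best known from cerebellar Purkinje cells. The authors' deposited table had Slc1a6 at -3.32 in RNA and -2.47 in footprints at 24 h, and at -3.23 and -2.31 at 48 h. RNA in treated cells was 10.0% of that in untreated cells at 24 h. The excluded glutamate transporters Slc1a2 and Slc1a3 had RNA values of opposite sign, 2.17 and 1.05 at 24 h in the authors' deposited table. Slc1a5 (ASCT2), which exchanges glutamine, lay between -0.20 and 0.29 in RNA and footprints.

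Family Slc6 couples transport to sodium and chloride and covers GABA, glycine, taurine and creatine, and its members differed in direction. The taurine transporter gene Slc6a6 was at 1.52 in RNA and 1.59 in footprints at 24 h, and at 1.73 and 1.79 at 48 h, in the authors' deposited table. Slc6a6 was thus higher in all 4 values. Slc6a17 (NTT4), a vesicular transporter of neutral amino acids known from neurons, had -2.28 and -2.05 in RNA and footprints at 24 h, and -2.63 and -2.57 at 48 h, in the authors' deposited table. Slc6a15, which carries branched-chain amino acids and proline, was below 0 throughout, from -0.79 in footprints at 24 h to -0.23 in RNA at 48 h. The creatine transporter gene Slc6a8 stayed between -0.03 and 0.28, and the glycine transporter gene Slc6a9 (GlyT1) between -0.46 and 0.14.

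The highest values of all members belonged to a lysosomal peptide transporter and a proton-coupled transporter. Slc15a3 codes for PHT2, which carries histidine and small peptides across the endolysosomal membrane, and lies at chr19:10842544-10857915. It had 8.59 in RNA and 5.69 in footprints at 24 h, and 7.40 and 5.65 at 48 h, in the authors' deposited table. Slc36a2 codes for PAT2, which carries glycine, proline and alanine with protons, and lies at chr11:55158468-55185099. In the authors' deposited table Slc36a2 was at 7.45 in RNA and 4.36 in footprints at 24 h, and at 8.58 and 5.41 at 48 h. Among 12205 genes Slc15a3 ranked 25 and Slc36a2 ranked 40 from the highest RNA value at 24 h, and they ranked 46 and 23 at 48 h. The number of reads behind these values, in treated or untreated libraries, is not shown by the table.

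Relatives of these genes differed from them. Slc36a1 (PAT1), which exports small amino acids from lysosomes, is the nearest other member on chromosome 11, 19.22 kb from Slc36a2. It had 0.63 and 0.76 in RNA and footprints at 24 h and 0.83 and 0.75 at 48 h in the authors' deposited table. Slc36a4 lay between -0.29 and -0.13. Of the other peptide transporters, Slc15a4 (PHT1) lay between -0.05 and 0.09, while Slc15a2 (PEPT2), a carrier of small peptides at the plasma membrane, was at -0.45 and -0.99 in RNA and footprints at 24 h and at -0.19 and -0.47 at 48 h in the authors' deposited table. Slc17a5 codes for sialin, the lysosomal sialic acid exporter, and lay between -0.62 and -0.36.

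Both measured members of family Slc43, which need no ion gradient, were higher. Slc43a2 codes for LAT4, which carries branched-chain amino acids, phenylalanine and methionine. The authors' deposited table had Slc43a2 at 2.68 in RNA and 2.73 in footprints at 24 h, and at 2.57 and 2.71 at 48 h. Slc43a3, known as a carrier of purine nucleobases rather than of amino acids, was at 2.71 and 2.39 in RNA and footprints at 24 h and at 2.68 and 2.29 at 48 h in the authors' deposited table. Slc7a6os, the gene opposite Slc7a6, lay between 0.23 and 0.44.

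Footprint values followed RNA values closely in sign. Of the 17 members past 1 in RNA or footprints at 24 h, 17 had the same sign in both, and 16 of 16 at 48 h, where all genes gave 99.0% and 98.1%. At 24 h 15 members were past 1 in both, and at 48 h 14. RNA and footprints came from the same lysates, so a difference between cultures enters both.

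**Figure D3:**
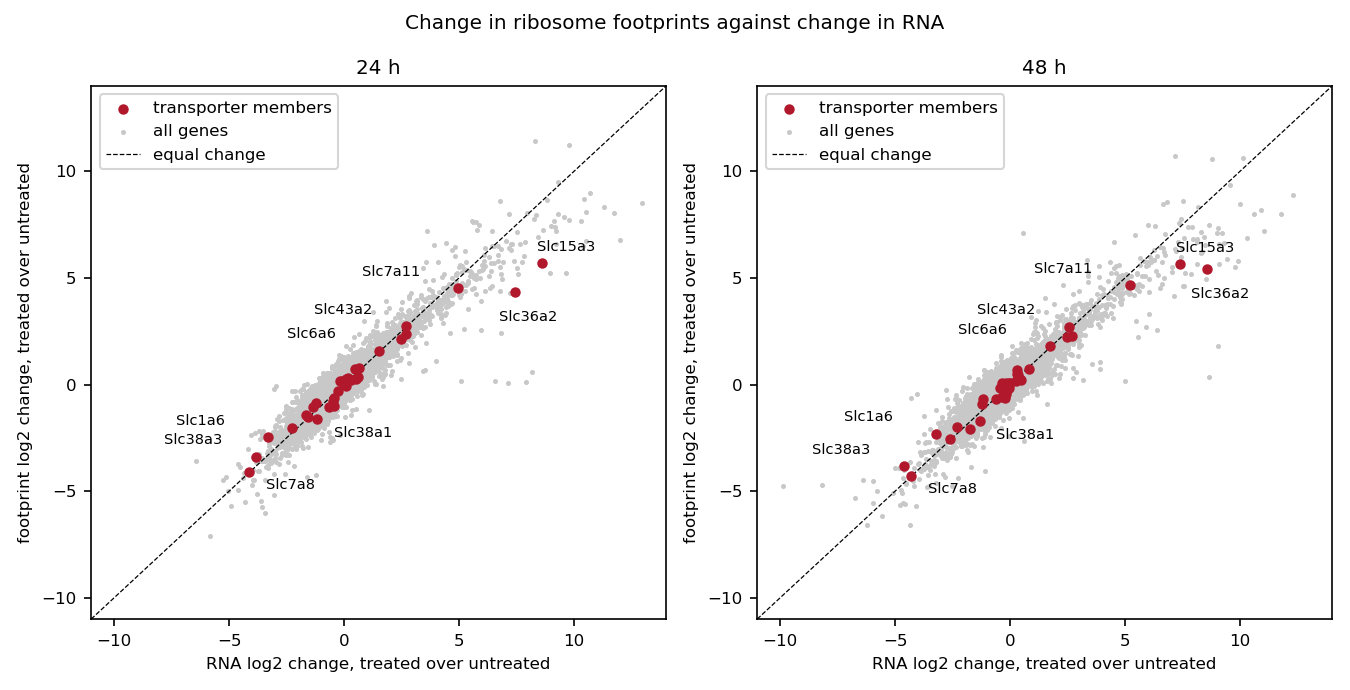
Log2 change in footprints (y axis) against log2 change in RNA (x axis), treated over untreated astrocytes, at 24 h (left) and 48 h (right), for all 12205 genes (grey) and the 35 members (red), with a dashed line of equal change. Slc15a3 and Slc36a2 lie below the line on the right, while Slc7a8, Slc43a2 and Slc6a6 lie on or near it.

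In translation efficiency 2 members passed -1 at each time and 0 passed 1. These were Slc36a2, at -3.19 at 24 h and -3.29 at 48 h, and Slc15a3, at -2.58 and -1.72, in the authors' deposited table. Among all genes 1.32% were at -1 or less and 1.79% at 1 or more at 24 h, and 1.71% and 2.85% at 48 h. Slc36a2 ranked 12 and Slc15a3 ranked 22 from the lowest of the 12205 efficiency values at 24 h. Both were higher in footprints as well, by 20.5-fold and 51.7-fold at 24 h, beside 175-fold and 385-fold in RNA. For Slc15a3 at 24 h the deposited efficiency differed by 0.32 from the footprint value minus the RNA value, -2.90, while for the other 34 members this gap lay between -0.11 and 0.04.

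Most efficiency values were closer to 0, with 31 of 35 members within 0.5 at 24 h and 29 at 48 h (78.1% and 73.6% of all genes). The highest were Slc1a6, at 0.75 at 24 h and 0.85 at 48 h, and Slc38a3, at 0.38 and 0.71, in the authors' deposited table. After Slc36a2 and Slc15a3 the lowest were Slc15a2 at 24 h, at -0.62, and Slc7a11 at 48 h, at -0.61, in the authors' deposited table.

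Among the other members higher in RNA and footprints, efficiency in the authors' deposited table was -0.45 at 24 h for Slc7a11, -0.40 and -0.48 at 24 h and 48 h for Slc43a3, and -0.44 and -0.35 for Slc7a2. Slc43a2 (-0.04 and 0.04) and Slc6a6 (0.04 and 0.03) had efficiencies near 0 in the authors' deposited table, and their footprint values exceeded their RNA values by 0.05 and 0.14 (Slc43a2) and by 0.07 and 0.06 (Slc6a6) at 24 h and 48 h. Among the lower members, the authors' deposited table gave Slc38a1 -0.49 and -0.40 and Slc38a2 -0.44 and -0.10. Slc3a2 (0.33 and 0.31) and Slc7a4 (0.32 and 0.52) were above 0 at both times in the authors' deposited table. Slc7a5 had 0.03 and 0.24, Slc6a17 0.15 and -0.06, and Slc7a8 -0.04 and -0.08 in the authors' deposited table. Of the 7 members higher in RNA at 24 h, 6 had an efficiency below 0 (63.7% of all such genes), and of the 9 lower in RNA, 7 had one above 0 (55.2% of all such genes). At 48 h the counts were 5 of 7 (68.4%) and 5 of 9 (58.8%). The efficiency value contains the RNA value with its sign turned, so these counts are not independent of the choice by RNA.

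**Figure D4:**
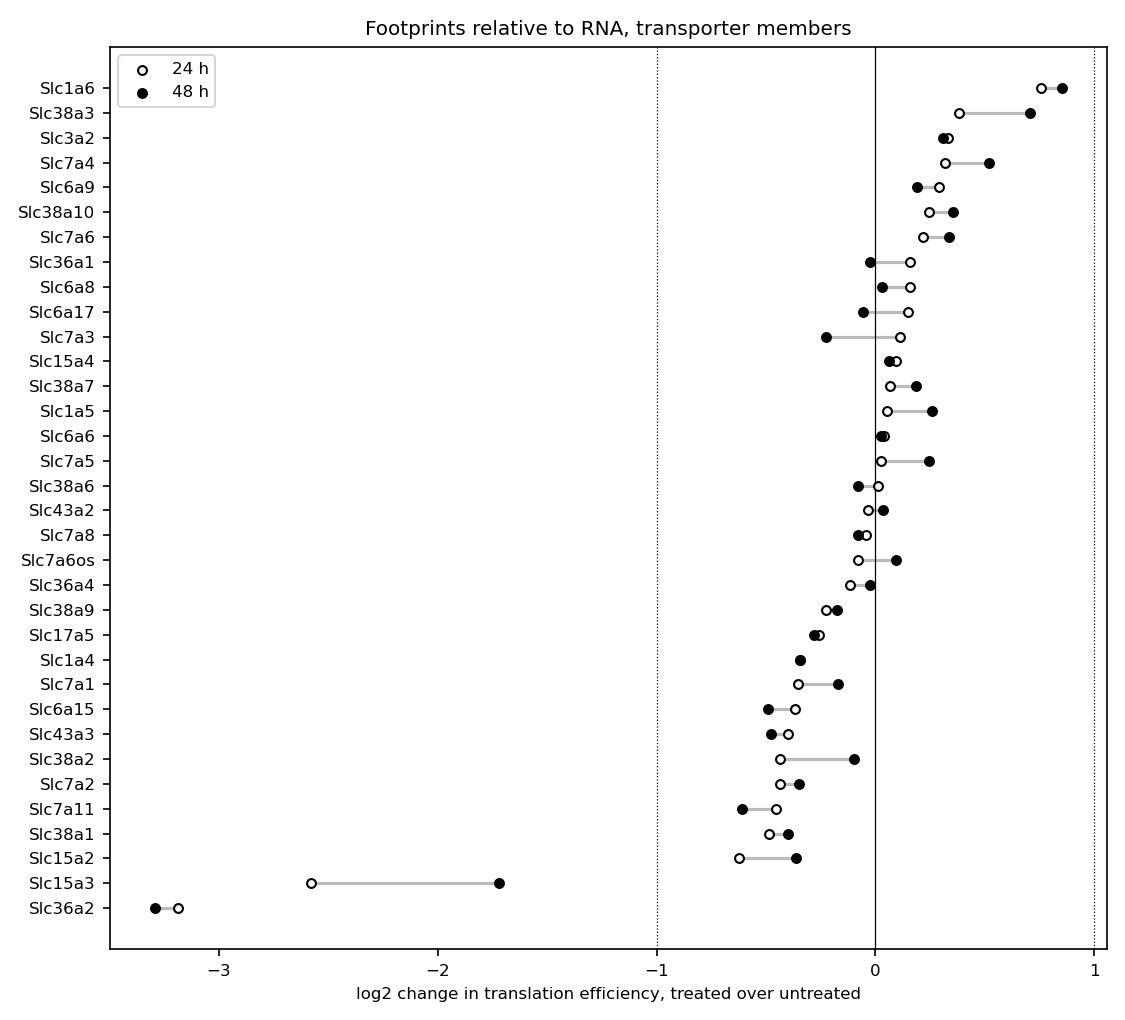
Log2 change in translation efficiency in treated over untreated astrocytes (x axis) for 34 members at 24 h (open circles) and 48 h (filled circles), joined by a line and ordered by 24 h. Slc36a2 and Slc15a3 lie below -1 at both times, and every other member drawn lies between -0.62 and 0.85.

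Most members differed little between the times. The difference of 48 h minus 24 h was within 0.5 in 31 of 35 members in RNA and in 30 in footprints (93.2% and 91.4% of all genes). In RNA Slc36a2 was higher at 48 h by 1.13 and Slc15a3 lower by 1.19, where 0.631% of all genes were at 1 or more and 0.926% at -1 or less. In footprints Slc36a2 was higher at 48 h by 1.05 and 0 members were at -1 or less, where all genes gave 0.729% and 1.07%. The footprint value of Slc15a3 differed by only -0.04. The next largest RNA differences were those of Slc38a3, at -0.78, and Slc7a5, at -0.73.

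Lists of genes that use the transported amino acids were counted beside the transporters, as descriptions, and Asns, Chac1, Sesn2 and Gatm stand on more than 1 list. Over all genes 7.54% were higher and 9.55% lower in RNA at 24 h, and the shares in footprints and at 48 h were close to these. Of 13 genes for glutathione and cystine use, 2 were higher and 1 lower in RNA at 24 h and 2 and 0 at 48 h, with medians of 0.35 and -0.03. In footprints 1 was higher and 0 lower at 24 h, and 1 and 1 at 48 h, with medians of 0.21 and 0.37. Glutathione reductase (Gsr) had an RNA value of 1.36 and a footprint value of 1.25, while Cbs, which begins cysteine synthesis from homocysteine, was at -1.07 and -0.36 at 24 h in the authors' deposited table. The subunits of the glutathione-making ligase, Gclc and Gclm, were at 0.68 and 0.69 in RNA at 24 h in the authors' deposited table. Of 11 measured genes of glutamine and glutamate metabolism 0 passed 1 in either direction in RNA or footprints at either time. Glul, which makes glutamine, was at 0.35 in RNA and 0.18 in footprints at 24 h in the authors' deposited table.

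Of 9 measured genes of arginine and polyamine metabolism, 1 was higher in RNA at 24 h and 2 at 48 h. In footprints 2 were higher at each time, and 0 were lower in RNA or footprints. The one at 24 h in RNA was Nos2, the inducible nitric oxide synthase that uses arginine, with 10.68 in the authors' deposited table. Nos2 was the only gene of the list past 1 in both RNA and footprints. Of 9 serine and glycine genes, 0 were past 1 in RNA or footprints at 24 h, and at 48 h 1 was lower in both. This was Psat1, which makes serine, with -0.96 and -0.83 for RNA and footprints at 24 h and -1.01 and -1.07 at 48 h in the authors' deposited table. Of 10 genes of branched-chain amino acid breakdown, 1 was higher in RNA and in footprints at 24 h (Bckdhb, with an RNA value of 1.20 in the authors' deposited table), 0 were higher in RNA and 2 in footprints at 48 h, and 0 were lower. Of 10 measured genes of GABA, taurine and creatine metabolism, 3 were higher (Maob, Cdo1 and Gad2) and 2 lower (Ckb and Gamt) in RNA at 24 h, with Maob at 3.01 and Ckb at -2.42 in the authors' deposited table. The counts were 2 higher and 1 lower in footprints at 24 h, and 3 higher and 1 lower in RNA and in footprints at 48 h.

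Of 15 genes of the ATF4 and amino acid response, 5 were higher and 0 lower in RNA at 24 h (median 0.63), and 3 were higher and 0 lower at 48 h (median 0.39). In footprints 4 were higher and 0 lower at each time (medians 0.70 and 0.39). Cebpb was at 3.15, Nupr1 at 2.64 and Atf4 itself at 1.05 in RNA at 24 h in the authors' deposited table, with Atf4 at 1.77 in footprints at 24 h and 1.03 at 48 h. Cebpb, Nupr1 and Atf4 were not the only genes among the 5 higher in RNA at 24 h. Trib3, Chac1 and Sesn2, picked from the same list after their values were seen, were at 0.67, 0.53 and 0.21 in RNA at 24 h in the authors' deposited table. These genes stayed below 1 in RNA and footprints at both times. Whether an amino acid response took place was not tested. Of 23 measured genes of amino acid sensing by mTORC1, 0 were higher and 1 lower in RNA at 24 h (Tfeb, at -1.32 in the authors' deposited table), and the median was -0.25, beside -0.03 over all genes. The footprint median at 24 h had the opposite sign, 0.09, beside 0.01 over all genes. In footprints at 24 h 0 were higher and 1 lower, and that gene was Sesn1, at -1.18, while Tfeb was at -0.40 in the authors' deposited table. At 48 h 0 were higher and 1 lower in RNA and in footprints, with medians of -0.23 and 0.02. The lower gene was Tfeb in RNA (-1.26) and Rragd in footprints (-1.01) in the authors' deposited table.

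The label of the cells was checked against marker genes as far as changes allow, since no levels are given. All 9 astrocyte markers were in the table, and 2 were higher and 5 lower in RNA at 24 h (median -1.21). The 2 higher were Slc1a2 (2.17) and Slc1a3 (1.05), the glutamate transporters left out of the members. The 5 lower were Aldoc (-2.69), Gfap (-1.79), Aldh1l1 (-1.23), S100b (-1.23) and Sox9 (-1.21) in the authors' deposited table. Gja1 was at -0.50 and Aqp4 at 0.32. Of other cell types, 4 of 8 neuron, 2 of 8 microglia and macrophage, 5 of 8 oligodendrocyte lineage, 4 of 6 endothelial, 3 of 4 pericyte, 4 of 4 fibroblast and 1 of 3 ependymal markers were in the table. Their RNA medians at 24 h were -0.94, 1.18, -0.36, -1.03, -0.96, 1.32 and -1.41 in that order. Higher in RNA at 24 h were 0, 1, 2, 1, 1, 2 and 0 of these markers, and lower were 2, 0, 1, 3, 1, 0 and 1. These medians rest on few genes that could differ in direction. Pericyte markers ran from -3.01 to 2.85, endothelial markers from -3.54 to 1.77 and fibroblast markers from -0.58 to 4.16. Beside the lower values of Slc6a17 and Slc1a6, the neuron markers Map2 and Stmn2 were at -2.49 and -1.55 in RNA at 24 h in the authors' deposited table, and Syt1 and Tubb3 at -0.34 and 0.17. Among the astrocyte markers, Aldoc (-2.69) and Gfap (-1.79) were lower as well, while Slc1a2 and Slc1a3 were higher. Beside the higher value of Slc15a3, the macrophage markers Cd68 and Adgre1 were at 1.80 and 0.57 in RNA at 24 h, and at 0.56 and 7.55 at 48 h, in the authors' deposited table. The part of other cell types in these values was not tested.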

How the data were processed

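Libraries of RNA and of ribosome footprints were made from primary mouse astrocytes treated with TNFα and IL-1β for 24 h or 48 h, or left untreated, in 3 batches each. The submitters' processing notes name TopHat2, featureCounts and the build mm10, with no versions; normalization, the combining of batches and the fold change method are not stated there. What the authors deposited is a table of log2 fold changes, 6 columns by 12205 genes, per the file headers. Efficiency columns carry no scale in their header and were taken to be log2, since 79.5% of all genes at 24 h and 78.0% at 48 h lie within 0.1 of footprints minus RNA. For the other genes the gap was larger, and over all genes it ran from -4.38 to 5.54 at 24 h and from -3.90 to 6.98 at 48 h. Efficiency ranks among all genes therefore rest on the deposited efficiency and not on a plain ratio. RNA was labelled polyA, while the library kit named in the labels' protocols is for total RNA, and which applied was not resolved. Counts and depths were not used here, so the precision of a value is unknown, and genes whose copies share reads are uncertain.

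Members were matched by symbol, and 35 of 35 had the same symbol in the table of gene names and a position in RefSeq on GRCm38.p6. All genes of the table were kept in the counts, and the values of 1 member and of 1 gene of a pathway list are not reported here. The design foresaw a test only if values per library were there, so none was run. Values of 1 or more and of -1 or less were counted in members and in all genes, and medians, ranks and the difference of 48 h minus 24 h were computed with Python 3.11.15 and pandas 2.3.3. Counting was tested on simulated data. Named genes are the members past 1 in RNA or footprints, further members by role, and at most 3 genes of each pathway list by RNA value at 24 h. Gclc, Gclm, Glul, Psat1, Atf4, Gad2, Gamt, Sesn1 and the astrocyte, neuron and macrophage markers were named after their values were seen. The same holds for Rragd, Trib3, Chac1 and Sesn2. The members and lists were chosen with earlier results of these data known. Alternatives tried were thresholds of 0.58 and 2, centring, the mean, members with additive values, footprints minus RNA as efficiency, and leaving out Slc7a6os.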

Additional observations from a re-analysis of the deposited data

How the results depend on the processing

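No paired analysis was possible because the deposited table holds 1 value per gene and comparison and no value per batch, and for the same reason no replicate could be left out. Centring each column on the median of all genes (at most 0.05 away from 0) and leaving out Slc7a6os, an alternative chosen after seeing the data, kept every count within 1.5 times and every median within 0.1. Efficiency taken as footprints minus RNA did so too, though it moved 7 single values by over 0.1. Small medians changed sign: footprints at 48 h gave -0.036 without Slc7a6os, against 0.056 with it, and efficiency at 48 h gave 0.014 as footprints minus RNA, against -0.055 as deposited. At a threshold of 2 in place of 1 the count of members past it was 10 of 35 in RNA and 10 in footprints at 24 h, 1 in efficiency at 48 h, and 0 in RNA and 0 in footprints for 48 h minus 24 h. At 0.58 it was 4 in efficiency at 24 h and 5 at 48 h, and 4 in RNA and 2 in footprints for 48 h minus 24 h. With the 28 members whose values add up within 0.1 at both times, 9 were past 1 in footprints at 48 h and 0 in efficiency at 24 h, 0 in efficiency at 48 h, and 0 in RNA and 0 in footprints for 48 h minus 24 h. Slc36a2 and Slc15a3 are not among these 28. The medians over them were -0.080 in RNA at 24 h and -0.045 in footprints at 48 h. Means over all members were 0.30 in RNA at 24 h, 0.23 in RNA at 48 h, and -0.20 and -0.16 in efficiency at 24 h and 48 h. Depth is unknown, so no precision can be given for any value.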
